A study of Anopheles gambiae with 104 samples.

Results

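The comparison set day against night in the bodies of female Anopheles gambiae mosquitoes kept under a light:dark cycle (LD). Its 16 arrays, of 104 in the series, were chosen by tissue, light regime and hour of collection. The 8 day arrays were collected at zeitgeber time (ZT) 28 and 52 (early day) and at ZT32 and 56 (late day). The 8 night arrays were collected at ZT16 and 40 (early night) and at ZT20 and 44 (late night). Zeitgeber time counts the hours from the end of the dawn transition, and the lights went off at ZT12. Every time point had 2 arrays, and collections lay 4 h apart. The females were mated, had not taken blood, belonged to the Pimperena strain of the S form and were 7 to 9 days old when the experiment began. Their day had 11 h of full light, with dawn and dusk transitions of 1 h each. Heads were removed, and RNA was extracted from the bodies, appendages included, of 20 to 30 pooled mosquitoes per time point. The comparison arms were bodies in constant dark (DD), 16 arrays at the same subjective hours, and heads in LD, 16 arrays at the same time points.

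Anopheles gambiae is a night-active mosquito whose females fly, feed and lay eggs mainly in the dark and rest by day. Daily changes in transcript level can follow the circadian clock, a feedback loop of transcription factors that runs without external cues, or can follow light and behaviour directly. The body holds fat body, gut, ovaries, Malpighian tubules and flight muscle, and each array measured these tissues together. Fewer cells of a type and less RNA per cell cannot be told apart in such samples.

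Values are log2 levels of probe sets, each a group of short probes read out as 1 value. Of 16884 Anopheles probe sets, 7325 lay above background in bodies, with background set at 3.78 on the log2 scale (the 95th percentile of probe sets for the malaria parasite Plasmodium falciparum on the same array). Neither the files nor the reference table name a gene for any of these probe sets: 0 matched the 15165 reference genes. Results are therefore given by probe set name, and the lists of clock, digestive, reproductive, immune and other genes could not be assigned. The defining markers of body tissues could not be checked for the same reason. The name holds a chromosome arm (UNKN where none is given) and a cluster number.

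The 2 arrays of ZT52 stood apart from those of the other time points. Across probe sets the difference between them had an SD of 0.58 on the log2 scale, against 0.28 to 0.36 at the other 7 time points. At least 2-fold differences between the 2 arrays were found in 439 probe sets at ZT52 and in 54 to 171 elsewhere. Array 2 of ZT52 lay closer to the ZT56 mean (SD of the difference 0.33) than to array 1 of its own time point. A mean of 2 arrays varies less than a single array, which favours such a result at any time point. Both arrays of ZT16, ZT20 and ZT40 also lay closer to the mean of another night time point than to each other. The gap was wider at ZT52 (0.33 against 0.58) than on array 1 of ZT20 (0.27 against 0.36), the widest of these. From the mean of ZT28, the other early day time point, array 2 of ZT52 lay at 0.48. On array 1 the 3′ minus 5′ difference of the glycolytic enzyme Gapdh, which grows as RNA is shortened from the 5′ end, was 4.83 on the log2 scale, against 2.90 on array 2. The counts of called probe sets are therefore given with and without ZT52. No label states that paired arrays come from different pools, and the spread between them may be technical. For the tests they were averaged, and the same hour on 2 successive days was the replicate.

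Day and night bodies differed in many transcripts, in both directions and mostly by less than 2-fold. Of 7325 probe sets, 565 (7.71%) passed the test (limma, adjusted p under 0.05), with 336 (4.59%) higher by day and 229 (3.13%) higher at night. Before adjustment, 1648 had a p under 0.05, and 1129 of these were higher by day. The day-higher probe sets changed by a median of 1.70-fold (quartiles 1.48 and 2.30), and 105 of them changed at least 2-fold. Night-higher probe sets changed by a median of 1.92-fold (quartiles 1.52 and 3.07), and 107 of 229 changed at least 2-fold. At least 4-fold differences were seen in 41 day-higher and 40 night-higher probe sets. Over all 7325 probe sets the median absolute difference was 0.15 on the log2 scale, and the median signed difference was 0.06 towards day. The plot of the difference against level shows large differences across much of the range of levels. Without ZT52 the count was 449, split evenly into 228 higher by day and 221 higher at night. The count also moved by over 1.5 times when any one of the other time points was left out, to 287 without ZT16, 286 without ZT20, 1019 without ZT28, 304 without ZT32, 367 without ZT40, 259 without ZT44 and 359 without ZT56.

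**Figure D1:**
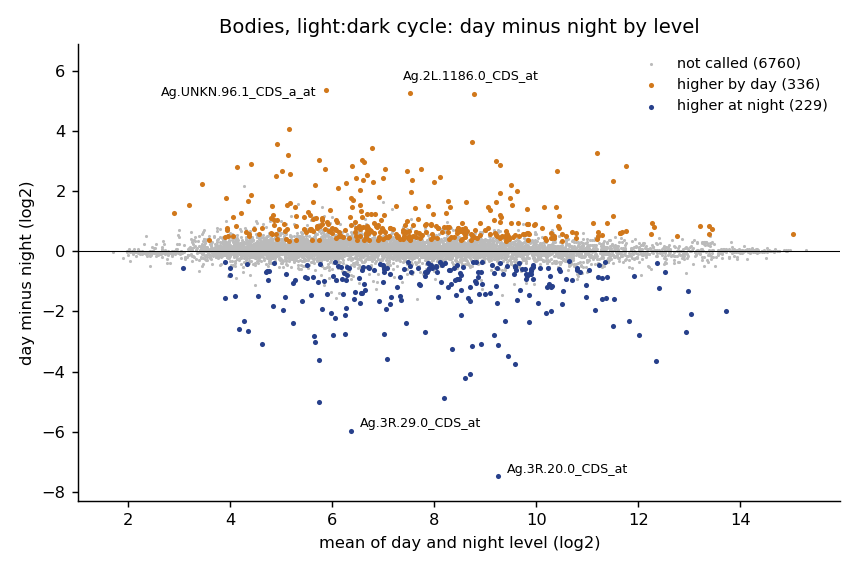
Each point is a probe set tested in bodies in LD, with its mean of day and night levels (log2) on the x axis and its day minus night difference (log2) on the y axis. Coloured points passed the test, 336 higher by day (orange) and 229 higher at night (blue), and the named probe sets lie at the upper and lower edges.

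Of the 81 probe sets that changed at least 4-fold, 79 were called again without each of the 8 time points in turn. Of all 565 calls, 212 were, 107 of them higher by day and 105 higher at night. These counts are in part fixed by the choice, since each refit used the remaining time points, which also chose the lists. On each replicate alone 231 of the 565 were called, 123 higher by day and 108 higher at night. The time point means of the 2 sides did not overlap for 308 of the 336 day-higher and 218 of the 229 night-higher probe sets. Among all probe sets tested, 15.6% did not overlap.

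Ag.UNKN.96.1_CDS_a_at was the probe set with the highest day over night ratio. Its 8 day arrays ran from 7.92 to 9.02 on the log2 scale with a median of 8.68, and its 8 night arrays from 2.76 to 3.33 with a median of 3.28. All day arrays thus lay well above all night arrays, and all night arrays lay at background. The day mean was 8.55 ± 0.41 (SD, n = 4 time points) and the night mean 3.19 ± 0.14, a difference of 5.35 ± 0.13 (SE; limma adjusted p = 7.66e-06). Since the night level was under the background threshold, the change was at least 27.3-fold. At dawn the level had already climbed to 6.37 (ZT24) and 5.64 (ZT48), and at dusk it had dropped to between 4.18 and 5.25. The transcript was therefore measured as present from dawn to dusk and not told from background at night. Another probe set of the same cluster changed in the same way, with 7.20 by day and 3.13 at night (limma adjusted p = 3.87e-06).

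Ag.2L.1186.0_CDS_at, a probe set of chromosome arm 2L, had a similar difference at higher levels. Its day arrays ran from 8.90 to 11.09 with a median of 10.73, and its night arrays from 3.98 to 5.58 with a median of 4.92. The sides did not overlap, and every night array lay above background. Day and night means were 10.16 ± 0.92 and 4.88 ± 0.33 (SD, n = 4 time points), which is a 39.0-fold difference (5.29 ± 0.26 on the log2 scale, SE; limma adjusted p = 8.98e-05). It was higher in late than in early day on both days, at 10.73 (ZT32) and 10.96 (ZT56) against 8.92 (ZT28) and 10.03 (ZT52). At dusk it still stood between 8.34 and 8.78.

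Ag.3R.20.0_CDS_at showed the widest night over day ratio of the bodies. The night arrays lay between 12.51 and 13.56, with a median of 13.04. The day arrays lay between 4.62 and 6.93, with a median of 5.35, and no day array came near a night array. The means of 12.98 ± 0.34 at night and 5.49 ± 0.64 by day (SD, n = 4 time points) gave a 180-fold difference (-7.49 ± 0.26 on the log2 scale, day minus night, SE; limma adjusted p = 2.23e-05). The level at dusk was already that of the night, at 12.64 to 13.35. At dawn it was 11.12 (ZT24) and 10.25 (ZT48), and 4 h later it was 5.45 and 6.25.

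Ag.3R.29.0_CDS_at, on the same chromosome arm, was high at night and close to background by day. Its night arrays ran from 8.47 to 10.28 with a median of 9.31, and its day arrays from 2.30 to 4.25 with a median of 3.62. The sides did not overlap, and 4 of the 8 day arrays lay above the background threshold. Means were 9.35 ± 0.67 at night and 3.38 ± 0.49 by day (SD, n = 4 time points; -5.97 ± 0.28 on the log2 scale, SE; limma adjusted p = 7.68e-05), and with the day mean under the background threshold the change was at least 47.6-fold. The highest levels came at dusk, between 10.76 and 11.20, and the transcript was back at 3.36 and 3.06 by dawn. The fall at the end of the night thus came earlier than for Ag.3R.20.0_CDS_at, which still stood above 10 on the log2 scale at both dawns.

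**Figure D2:**
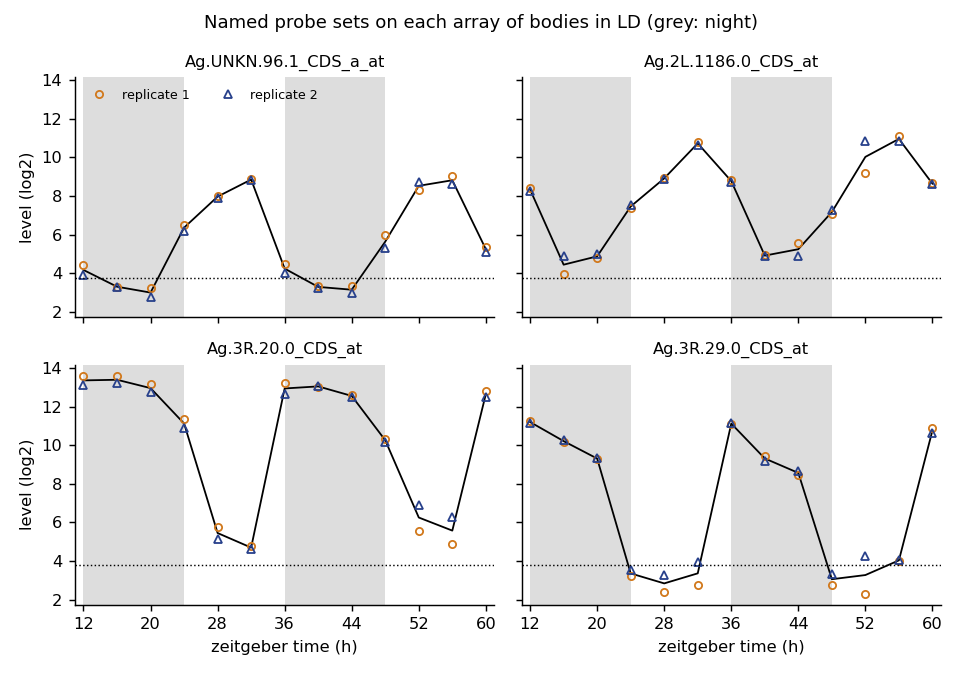
Level (log2) on each array of bodies in LD against zeitgeber time (h) for the 4 named probe sets, with circles for replicate 1, triangles for replicate 2, a line through the mean of each time point and a dotted line at the background threshold of 3.78. Grey spans run from lights off to the end of the dawn transition, and in each panel the day and night arrays lie in separate ranges on both days.

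Both cycles of the 48 h showed differences of like size. Among the day-higher probe sets, the median day minus night difference was 0.72 on the log2 scale in the first night and day and 0.77 in the second, and 185 of 336 were larger in the second. Among the night-higher ones the medians were -0.95 and -0.98, with 96 of 229 larger in the second. At least 1.5-fold differences in both cycles were found for 193 day-higher and 150 night-higher probe sets. These values are a description, since the calls rest on the same time points.

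Called probe sets were found on every chromosome arm and at every level, with the largest share among those brighter in bodies than in heads. The percentage called ran from 6.35% of 551 probe sets on X to 9.28% of 1509 on 3R. It was 4.48% among the dimmest of 4 equal bins of level and 9.61% among the brightest. Of 1342 probe sets at least 4-fold higher in bodies than in heads, 221 (16.5%) were called, 121 higher by day and 100 higher at night. Of 284 at least 4-fold higher in heads, 10 (3.52%) were called, and of the remaining 5699 it was 5.86%. Partner probe sets, which share an arm and a cluster number and may read the same transcript, moved together. Of 146 such relations of called probe sets, 138 (94.5%) had the same sign, 76 partners were called too, and 0 were called in the opposite direction. A pair with both members called was counted once from each member. The same share among all tested partners was not computed.

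The dawn and dusk arrays, which took no part in the test, showed when the levels turned over. On a scale where 0 is a probe set's night mean and 1 its day mean, the day-higher probe sets had a median position of 0.48 at ZT24 and 0.44 at ZT48, both dawns. At the 3 dusks the medians were -0.03, 0.13 and 0.19. By their medians the day-higher probe sets thus stood midway at dawn and near their night level at dusk, but members spread widely. The quartiles were 0.05 and 0.83 at ZT24 and -0.49 and 0.35 at ZT12. Of the 336, 155 were nearer to day at dawn and 72 at dusk, while 123 were nearer to night at both.

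The night-higher probe sets stood nearer to night at dawn than at dusk by their medians. Their median positions were 0.27 and 0.26 at the dawns and 0.47, 0.38 and 0.36 at the dusks. Of the 229, 76 were nearer to day at dawn and 102 at dusk. With the means of dawn, dusk and the 4 day and night phases ranked together, 51 were highest at dawn and 41 at dusk. Among the day-higher probe sets these counts were 25 and 5. The same shares over all tested probe sets were not computed. The order of dawn and dusk differed between probe sets, since 62 night-higher ones were nearer to day at dawn alone and 88 at dusk alone.

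**Figure D3:**
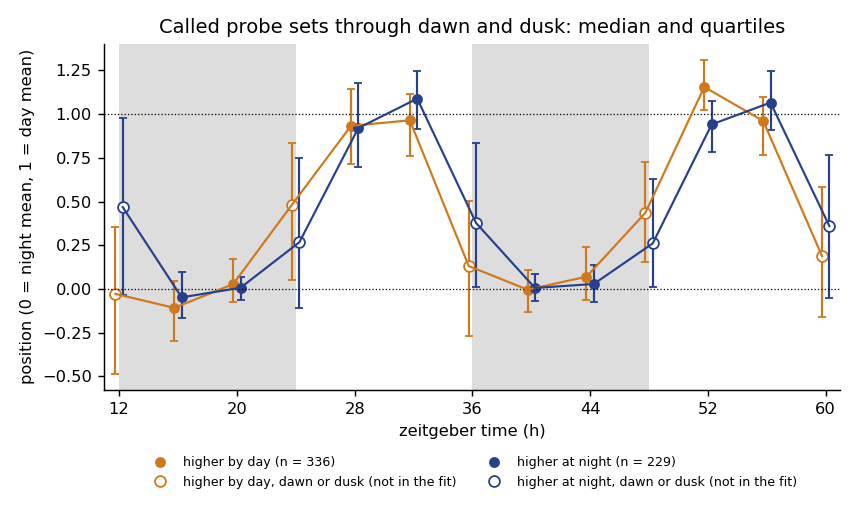
Median position and quartiles of the 336 day-higher (orange) and 229 night-higher (blue) probe sets at each time point against zeitgeber time (h), on a scale of 0 for the night mean and 1 for the day mean. Open symbols are dawn and dusk, which were not in the test, and at the dusks the orange medians lie at 0.19 or lower while the blue ones lie at 0.36 or higher.

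Within the day, no probe set passed the test of early against late day. Of 7325 probe sets 0% were called by limma (smallest adjusted p = 0.213), and 870 had an unadjusted p under 0.05, of which 683 were higher in early day. The result depended on ZT52: 37 were called without it, 13 higher and 24 lower in early day, and 73 when array 1 alone stood for that time point, while array 2 alone gave 0. With 1 array per time point, replicate 1 alone called 56. Leaving out ZT52 or ZT56 left 1 time point for its phase, with the spread taken from the other phases. The counts and adjusted p without either time point rest on that unreplicated phase. Without ZT56 the count was 2. Of 4502 P. falciparum background probe sets the same test called 27 (0.6%), 3 of them at least 1.5-fold. Over all 7325 probe sets the median signed difference was 0.10 on the log2 scale towards early day.

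The probe sets with the widest early against late day differences at an unadjusted p under 0.05 were picked after their values were seen. Ag.2L.232.1_a_at stood at 8.03 (ZT28) and then 4.77 (ZT32) on the first day. On the second its ZT52 arrays differed, at 8.34 and 4.34, and it stood at 3.82 at ZT56 and at 10.63 ± 0.49 at night (SD, n = 4 time points). Its early minus late day difference was 2.89 ± 0.57 (SE; limma adjusted p = 0.233, which passed at a rounded 0.05 without ZT52), and 3.89 or 1.89 with array 1 or 2 of ZT52 alone. Ag.2R.3612.0_CDS_at was highest at a single time point, ZT28. It stood at 8.13 at ZT28 and 5.40 at ZT52, at 3.41 and 4.44 in late day, with a night mean of 3.18 ± 0.41, under the background threshold (difference 2.84 ± 0.84, SE; limma adjusted p = 0.310).

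In the opposite direction Ag.3R.18.0_CDS_at stood at 3.41 at ZT28 and at 3.31 on array 1 but 8.70 on array 2 of ZT52. It was at 7.98 (ZT32) and 8.61 (ZT56) in late day, and at 10.72 ± 0.57 at night (SD, n = 4 time points). At the 2 later dusks it reached 12.62 and 12.49. Array 2 of ZT52 thus lay with late day. The early minus late day difference was -3.59 ± 0.79 (SE; limma adjusted p = 0.236, and 0.0277 without ZT52), and -4.94 or -2.24 with array 1 or 2 of ZT52 alone. Ag.2L.24.0_CDS_s_at stood at 8.06 and then 12.13 on the first day. At ZT52 array 1 was at 8.30 and array 2 at 12.29, against 12.36 at ZT56, so the second day showed a difference on array 1 alone. The dusks that followed were at 12.75 and 12.59. Its difference was -3.06 ± 0.78 (SE; limma adjusted p = 0.258, and 0.0732 without ZT52), and -4.06 or -2.07 with array 1 or 2 of ZT52 alone. For Ag.2L.232.1_a_at, Ag.3R.18.0_CDS_at and Ag.2L.24.0_CDS_s_at the differences were larger on replicate 1 arrays (3.57, -4.99 and -4.18) than on replicate 2 arrays (2.21, -2.18 and -1.95).

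Within the night, no probe set passed the test either. Of 7325 probe sets 0% were called between early and late night by limma (smallest adjusted p = 0.502), and 215 had an unadjusted p under 0.05, 89 higher and 126 lower in early night. With arrays taken one by one the count was 1, or 2 with a replicate block. The median absolute difference over all probe sets was 0.11 on the log2 scale between early and late night, against 0.16 between early and late day. The day value includes ZT52, where the array median was highest (7.34).

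The widest night differences at an unadjusted p under 0.05, again picked after their values were seen, are described here. Ag.3L.709.0_CDS_at was at background in early night, at 2.82 (ZT16) and 2.89 (ZT40), and at 4.13 (ZT20) and 4.31 (ZT44) in late night (limma adjusted p = 0.502). The late night mean was at least 1.36-fold above the background threshold, and the fitted difference of -1.36 ± 0.16 (SE, log2) rests on a side at background. It stood at 6.21 and 5.43 at dawn and averaged 6.74 ± 0.24 by day (SD, n = 4 time points), and it was above background before light. Ag.3L.179.0_CDS_at stood at 4.64 and then 6.30 in the first night and at 6.19 and then 7.52 in the second (-1.50 ± 0.55, SE; limma adjusted p = 1.00), and stood at 11.39 ± 0.24 by day. Ag.3L.332.0_CDS_at differed the other way, with 5.86 and then 5.40 and with 5.83 and then 4.00 (1.15 ± 0.43, SE; limma adjusted p = 1.00), and stood at 2.74 and 3.23 at dawn. Ag.UNKN.2225.0_at stood at 9.39 and then 7.92, and at 8.83 and then 8.10 (1.10 ± 0.36, SE; limma adjusted p = 1.00) and was not called between day and night.

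Taking the 4 phases together, an F-test called 259 probe sets (3.54%), and 251 of them were among the 565. Without ZT52 the count was 283. Of the 259, 85 were highest in early day, 68 in early night, 55 in late night and 51 in late day. Over all tested probe sets 47.9% were highest in early day, so this share of the called ones (32.8%) lay under the background. Among the 336 day-higher probe sets 199 were highest in early day, but the median position was 1.15 at ZT52 and 0.93 at ZT28, against 0.96 at both late day time points. At ZT28 alone the early day median thus lay slightly below late day. Of the 229 night-higher probe sets, 144 were lowest in late day and 85 in early day. All tested probe sets leaned the same way. Their median early minus late day difference was 0.10 on the log2 scale, and 17.2% were highest in late day. The counts are thus not read as a trait of the called probe sets.

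**Figure D4:**
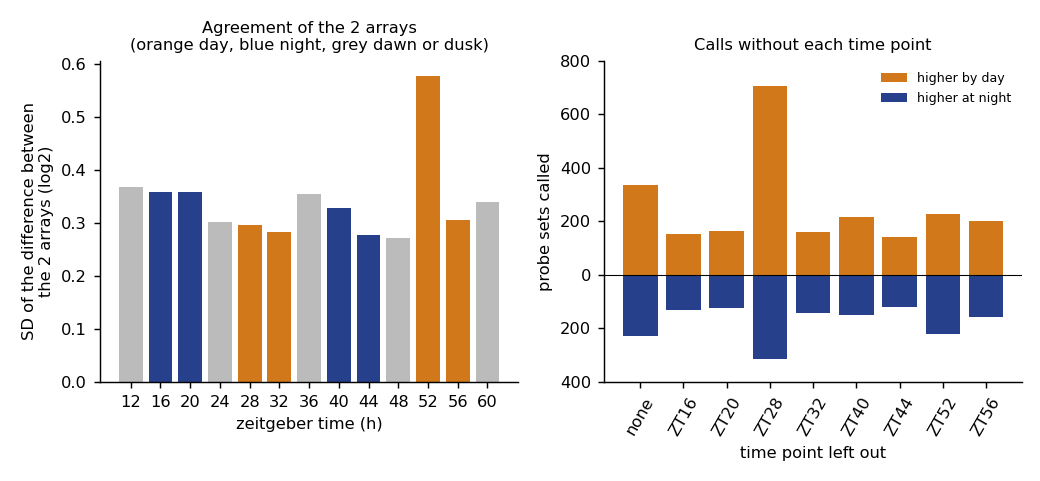
Left, the SD across probe sets of the difference between the 2 arrays (log2) at each zeitgeber time (h) of bodies in LD, which is 0.58 at ZT52 and lower at all others. Right, the number of probe sets called between day and night with each time point left out, higher by day above the line and higher at night below it, with 565 in all when none is left out and 1019 without ZT28.

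No array measure passed the test between day and night. A lone measure could not: the smallest exact permutation p of 4 against 4 time points is 0.0286, which becomes 0.2 adjusted over 7. The values of these measures are therefore a description. The Gapdh 3′ minus 5′ difference was 3.22 ± 0.57 by day and 2.90 ± 0.25 at night (SD, n = 4 time points; exact two-sided permutation p = 0.371, adjusted over 7 measures 0.52), with ZT52 highest at 3.86. The cytoskeletal protein actin, by its 3′ probe set, was at 13.06 ± 0.09 and 12.88 ± 0.09 (exact permutation p = 0.0571, adjusted 0.2). The array median over the 7325 probe sets was 7.19 ± 0.10 by day and 7.09 ± 0.03 at night (exact permutation p = 0.0571, adjusted 0.2), with 7.34 at ZT52. Of 4502 P. falciparum probe sets, which have no matching RNA in mosquitoes that took no blood, limma called 24 (0.533%) between day and night, all under 1.5-fold. Without ZT28 it called 4089 of them, so the high count of mosquito probe sets in that setting came with calls of most background probe sets. The part of these measures in the results was not tested.

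Most of the day and night differences of bodies in LD were smaller in constant dark, 514 of the 565. Among the 336 probe sets higher by day in LD, 273 (81.2%) had the same sign in DD, and 71 differed there at least 1.5-fold in the same direction. Their median difference was 0.76 on the log2 scale in LD and 0.20 in DD. Of the 229 higher at night in LD, 195 (85.2%) had the same sign and 83 reached 1.5-fold, with medians of -0.94 and -0.40. Over all 7325 probe sets 63.0% were higher by day in LD and 47.3% in DD. The LD values chose these lists, so a smaller DD median is in part fixed by the choice.

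A test of the LD minus DD difference itself called 136 of 7325 probe sets (1.86%; limma), and 112 of them had the larger day and night difference in LD. Of the 565 called in LD, 113 passed it, and of the 81 that changed at least 4-fold, 55 did. These shares are also in part fixed by the choice, since the test uses the LD values that chose the lists. Ag.3L.179.0_CDS_at stood at 11.39 by day and 6.17 at night in LD but at 8.02 and 7.97 in DD (difference of differences 5.17, limma adjusted p = 7.79e-05). Ag.UNKN.96.1_CDS_a_at stood at 7.50 ± 0.62 and 5.87 ± 1.69 in DD (SD, n = 4 time points; 3.72, limma adjusted p = 0.000552), so its subjective night level lay above background there. Ag.3R.20.0_CDS_at was at 4.14 and 4.65 in DD (-6.98, limma adjusted p = 5.87e-07), and Ag.3R.29.0_CDS_at at 2.37 and 2.54 (-5.79, limma adjusted p = 1.66e-06). Both means of these night-high probe sets were thus low in DD, and those of the second were at background. Ag.2L.1186.0_CDS_at stood at 12.30 by subjective day and 10.22 at night in DD, both above its LD levels (3.21, limma adjusted p = 0.000482).

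The regimes also differed in how the RNA behaved on the arrays. The 3′ minus 5′ difference of the bacterial dap transcript, a control added to the RNA before labelling, ran from 0.49 to 1.09 over the 8 LD time points and from 1.74 to 2.59 over those of DD. That of Gapdh averaged 4.54 ± 0.26 in the subjective night and 3.77 ± 0.43 in the subjective day of DD (SD, n = 4 time points), a gap in the other direction from LD. Processing and light cannot be told apart by this design. On 1 replicate alone the count of 136 fell to 63 (replicate 2) or 89 (replicate 1), and without ZT52 and CT28 it was 90.

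Heads of the same mosquitoes shared part of the pattern. Of the 336 probe sets higher by day in bodies, 283 (84.2%) had the same sign in heads, and 89 differed there at least 1.5-fold in the same direction. Of the 229 higher at night, 155 (67.7%) had the same sign and 75 reached 1.5-fold. Median differences in heads were 0.22 and -0.21 on the log2 scale, and 46.3% of all tested probe sets were higher by day in heads. Both head means were at background for 87 and 68 of these probe sets, where no difference could be measured and the sign says little. Without these, 214 of 249 day-higher and 137 of 161 night-higher ones had the same sign. Of the 81 that changed at least 4-fold in bodies, 54 were at background in heads on both sides. Body values chose these lists, so smaller head medians are in part fixed by the choice.

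A test of bodies minus heads at each time point called 712 of 8438 probe sets above background in either tissue (8.44%; limma), and 466 of the 712 were above background in both. The larger difference was in bodies for 302 of the 712. Ag.UNKN.96.1_CDS_a_at was at 3.05 and 3.01 in heads by day and night (difference of differences 5.32, limma adjusted p = 6.20e-06). Ag.3R.20.0_CDS_at was at 2.38 and 2.37 (-7.50, limma adjusted p = 2.61e-05), and Ag.3R.29.0_CDS_at at 2.52 and 2.52 (-5.98, limma adjusted p = 5.47e-05). All 3 were at background in heads, so their day and night differences were measured in bodies alone. Ag.3L.179.0_CDS_at was above background in heads, at 4.74 and 4.92, without a day and night difference of that size (5.40, limma adjusted p = 0.00405). Ag.2L.1186.0_CDS_at differed in heads too, at 11.37 by day and 7.12 at night, and its body and head differences (5.29 and 4.25) were not called different (limma adjusted p = 0.0716). On 1 replicate alone the count of 712 fell to 445 (replicate 2) or 403 (replicate 1), and without ZT52 it was 545. The dap 3′ minus 5′ difference ran from 1.35 to 1.65 over the 8 head time points, against 0.49 to 1.09 in bodies. By day and night it averaged 1.48 and 1.48 in heads, and 0.82 and 0.87 in bodies. The part of this gap in the comparison was not tested. Over all 3 arms, 27 day-higher and 25 night-higher probe sets differed at least 1.5-fold in the same direction.

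**Figure D5:**
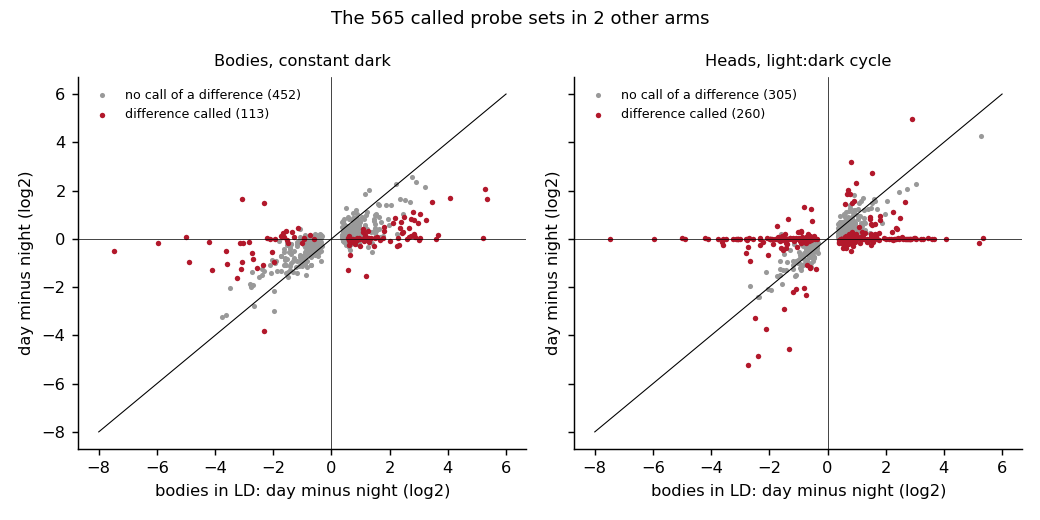
Day minus night difference (log2) of the 565 probe sets called in bodies in LD (x axis) against the same difference in bodies in constant dark (left) and in heads in LD (right). Red points passed the test of the difference between the arms (113 on the left, 260 on the right), the diagonal marks equal values, and the red points along the horizontal line in the right panel are mostly probe sets without a head difference.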

How the data were processed

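RNA was labelled from its 3′ end and hybridised to Affymetrix arrays, per the labels' protocols. The authors used GCRMA, per the submitters' processing notes, which corrects by probe sequence, normalizes arrays and summarises probes, and deposited log2 values. Its version and the set of arrays normalized jointly were not given in the sources used here. GCRMA draws low values together, so folds of dim probe sets are compressed. A probe set was used if its mean over all body arrays exceeded the 95th percentile of 4502 P. falciparum ones.

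The 2 arrays of a time point were averaged, and limma 3.58.1 in R 4.3.3 (lmFit, eBayes) fitted 1 mean per phase (early and late day, early and late night) to 8 time point means, with Benjamini-Hochberg adjustment over 7325 probe sets and a threshold of 0.05. LD was compared with DD in a joint fit of both arms, and bodies with heads as differences per time point. Array measures were compared with exact two-sided permutation tests. A change is given as "at least" against the background threshold of 3.78 where one side lay under it. Named probe sets, at most 2 in each direction per comparison, had the largest difference among called ones with the same sign on each replicate and no overlap of time point means. Where none was called, the same ranking ran over those at an unadjusted p under 0.05, a choice made after the values were seen. The comparison, its lists and its groupings were chosen with earlier results of these data known. Alternatives were 1 replicate alone, each time point left out, ZT52 as either array, arrays one by one with and without a replicate block, all 13 time points, the cycle as a block, the collection hour as a covariate, quantile normalization, other filters and a 1.5-fold minimum. The scripts were tested on simulated data. The number of arrays limits the precision.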

Additional observations from a re-analysis of the deposited data

Results flagged for a closer look

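Of 40 groups of 4 time points examined, 3 held a time point that stood outside the others, where chance gives 1 in 20. All 3 were groups of day time points, and the time point was ZT52 each time. The 40 include groups of night time points, which do not hold ZT52, so a rate for ZT52 alone is not given. The array spread of ZT52 was known before this check. The SD between its 2 arrays was 0.58 on the log2 scale, its P. falciparum median was 2.92, and Ag.3L.709.0_CDS_at stood at 6.39 there, below the other day time points.

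The day minus night difference was tested between arms and differed between LD and DD in 136 probe sets and between bodies and heads in 712. For Ag.3L.179.0_CDS_at the LD minus DD value was 5.17 and the bodies minus heads value 5.40 on the log2 scale. The same values were 3.72 and 5.32 for Ag.UNKN.96.1_CDS_a_at, -6.98 and -7.50 for Ag.3R.20.0_CDS_at, and -5.79 and -5.98 for Ag.3R.29.0_CDS_at. The last 2 probe sets were night-high in bodies in LD and low in both other arms.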

How the results depend on the processing

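The named probe sets kept their direction in all alternatives run, and those of the day and night, LD and DD, and bodies and heads comparisons kept their calls. Their direction was in part fixed by their choice, which required the same sign on each replicate and no overlap of time point means. Counts moved more. The day and night count of 565 became 124 without the first night, 300 without the second day, 285 with the collection hour as a covariate (mean hours of day and night collections were 42 and 30) and 355 with no filter. It ranged from 259 to 1019 without single time points, and was 392 and 338 on 1 replicate alone. Arrays one by one gave 1231, or 1329 with a replicate block, 67 or 82 for early against late day, and 1 or 2 for early against late night. The labels tie replicate numbers to no shared pool or batch. Differences between the 2 arrays correlated by 0.0045 to 0.358 across 28 pairs of time points (median 0.160, 22 over 0.1). Whether arrays of the same replicate number shared an effect was not tested. Quantile normalization gave 568 with 301 higher by day (53.0%, against 59.5%). Early against late day, 0 as reported, became 37 without ZT52, 2 without ZT56, 73 with array 1 of ZT52 alone, 4 with all 13 time points and ranged from 0 to 56 on 1 replicate alone. The F-test count of 259 ranged from 104 to 248 on 1 replicate alone. The LD and DD count of 136 ranged from 63 to 89 on 1 replicate, became 90 without ZT52 and CT28, and 579 on single arrays with a replicate block in each regime, an alternative chosen after seeing the data. The bodies and heads count of 712 ranged from 403 to 445 on 1 replicate. Between day and night, 24 P. falciparum probe sets were called, 11 and 12 on 1 replicate, 12 to 4089 without single time points and 0 at 1.5-fold or more. The causes were not tested. Signals near background limit the dim side of the largest differences.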
